A study of Homo sapiens with 27 samples.

Results

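The comparison described here is between LIM1215 cells kept off treatment after long selection and the LIM1215 cells from which they came. LIM1215 is an established human colorectal cancer cell line. The members are 6 of the 27 arrays of the series: 3 labelled withdrawal and 3 labelled parental, chosen by their titles alone, and 17687 named genes were compared between them. The parental arrays hold untreated cells, per the labels cultured from a single clone. The withdrawal arrays hold cells that had first survived 20 cycles of challenge and were then grown for 20 further cycles without it. In each challenge, 1000000 cancer cells in a 10 cm dish met 1000000 NK-CD16 cells, which are natural killer cells carrying an Fc receptor, together with 1 µg/ml cetuximab, an antibody against the receptor EGFR. The survivors at the end of the challenge, sampled before withdrawal, are a further group of 3 arrays, labelled resistant. All LIM1215 cells were grown in medium that contained hydrocortisone and human insulin. The other 18 arrays repeat the 3 groups in the colorectal lines SW48 and Caco2.

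Cetuximab bound to EGFR on a tumour cell is recognised by the Fc receptor of the natural killer cell, which then releases perforin and granzymes and secretes interferon gamma; this is antibody-dependent cellular cytotoxicity. Cells under shortage of amino acids or with unfolded protein in the endoplasmic reticulum slow general translation through phosphorylation of eIF2 alpha, while the transcription factor ATF4 and its partners raise genes for amino acid synthesis and transport, and this programme is called the integrated stress response. Growth factor signals through EGFR reach RAS and the MAP kinase ERK, whose output includes its own feedback inhibitors, the dual-specificity phosphatases and Sprouty proteins. The comparison asks which differences from the parental cells were present after the challenge had been stopped.

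Parental replicate 3 stood apart from the other parental arrays, so the counts of genes are given with and without it, as is the change of each called gene that moved by over 1.5 times when it was left out. Over all genes, parental replicates 1 and 2 correlated at r = 0.997 and the 3 withdrawal arrays with each other at 0.996. Parental replicate 3 correlated at 0.987 with each of the other parental arrays and at 0.992 with each withdrawal array, whereas parental replicates 1 and 2 correlated with the withdrawal arrays at 0.984. The array labelled parental replicate 3 was thus closer over all genes to the withdrawal arrays than to its own group. Whether the parental arrays came from separate cultures is not stated. The p-values measure the spread between arrays of the same group, taken over all groups of the 27 arrays, which need not be a spread between cultures.

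For single genes, parental replicate 3 lay between the other parental arrays and the withdrawal arrays. Its place was read on a scale where 0 is the mean of parental replicates 1 and 2 and 1 is the withdrawal mean, over the 1448 genes that were called without it and changed by at least 1 on the log2 scale. The median position was 0.708, with quartiles of 0.507 and 0.909. The 773 genes higher in withdrawal had a median position of 0.771 and the 675 lower genes one of 0.645. Only 28 of the 1448 genes lay below 0, and 229 lay above 1. Read in the same way against parental replicate 2 alone, parental replicate 1 had a median position of 0.0276 over 1439 genes, and parental replicate 3 one of 0.719. These positions describe the array and carry no test, since the genes were chosen by the same difference.

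**Figure D1:**
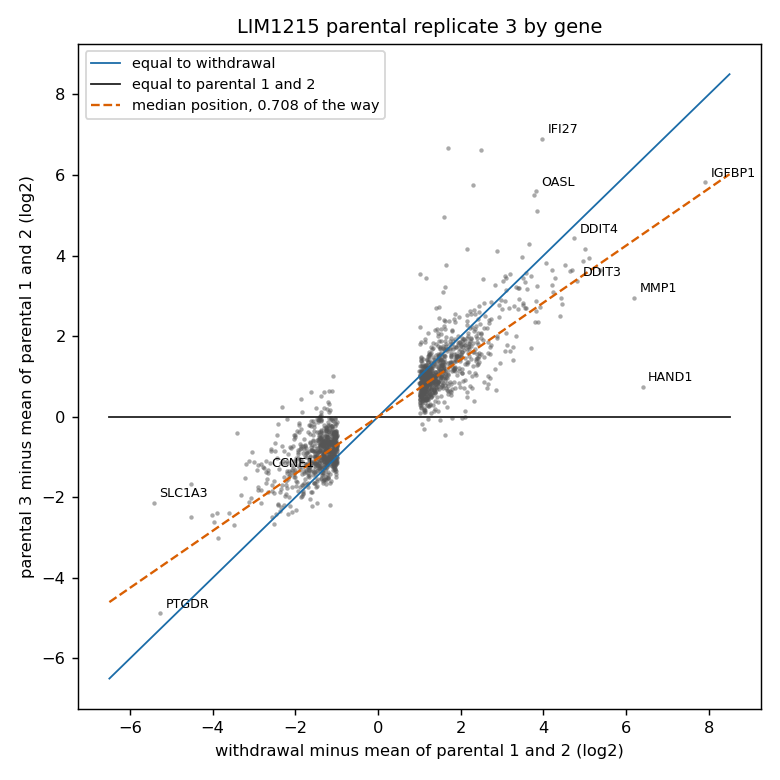
Each point is one of the 1448 genes called without parental replicate 3 that changed by at least 1 (log2) and had a group mean above background. The x axis is the withdrawal mean minus the mean of parental replicates 1 and 2 and the y axis is parental replicate 3 minus that mean, both in log2; the dashed line is the median position of 0.708. Most points lie between the horizontal line (equal to parental 1 and 2) and the diagonal (equal to withdrawal), with HAND1 near the first, PTGDR near the second, and IFI27 and OASL above the diagonal.

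The epithelial markers matched the label in both groups. All 11 measured markers of colorectal epithelium were above background in every LIM1215 array, where background is the 95th percentile of 612 negative control probe sets on the array. Of these 11, GPA33 was called higher in withdrawal and CDX2 lower with all arrays. Without parental replicate 3, 2 were higher and 3 lower. Of all genes, 9.89% were higher and 11.2% lower with all arrays, and 13.3% and 15.1% without parental replicate 3. Of 18 measured natural killer cell markers, 1 was above background in each parental and each withdrawal array and 0 were called, against 9 to 10 in the resistant arrays. The log2 summed level of this list was 9.46 to 9.73 in the parental arrays, 9.71 to 9.82 in the withdrawal arrays and 12.73 to 13.01 in the resistant arrays. T cell, pan-leukocyte and endothelial markers were all below background in the parental and withdrawal arrays, and so were B cell markers except CD79A in withdrawal replicate 3 (7.66, against 6.87 and 6.47 in the other withdrawal arrays). The 6 myeloid markers had 2 above background in the parental arrays and 1 in the withdrawal arrays, with log2 sums of 11.18 to 12.43 and 12.44 to 12.57. Among them CD68 was called higher and LYZ lower with all arrays, and 1 was higher and 1 lower without parental replicate 3. Of 6 fibroblast markers, 1 was above background in both groups.

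At an adjusted p under 0.05 (limma, Benjamini-Hochberg over all 17687 genes), 3724 genes were called, 21.1% of those tested. Of these, 1749 were higher in withdrawal (9.89%) and 1975 lower (11.2%), and 1068 changed by 2-fold or more. Without parental replicate 3 the count was 5019, or 28.4%, with 2357 higher (13.3%) and 2662 lower (15.1%). Both analyses called 3483 genes in the same direction and 0 in opposite directions, which is 93.5% of the first set and 69.4% of the second. A group mean above background was found for 3011 of these 3483 genes. The 3 withdrawal arrays lay wholly beyond the 3 parental arrays for 5588 genes (31.6%). The median change over all genes was 0.00486 with all arrays and 0.00454 without parental replicate 3.

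These counts borrow their estimate of the spread from all 27 arrays, and this matters here because parental replicate 3 widens the parental group. The median SD per gene was 0.235 in the parental, 0.151 in the withdrawal and 0.159 in the resistant arrays of LIM1215. When only the 6 compared arrays set the spread, 620 genes were called, and with the 9 LIM1215 arrays 2227. The same fits without parental replicate 3, chosen after the data were seen, called 4992 and 5378 genes. Leaving out parental replicate 1 or 2 instead gave 2304 or 2260 genes.

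Most genes listed for unfolded protein and amino acid stress had higher transcript levels in the withdrawal arrays. Parental replicate 3 was itself above parental replicates 1 and 2, by a median of 1.23 over the list. Whether the integrated stress response was active was not tested. Of 23 genes listed for unfolded protein and amino acid stress, all of them measured, 19 rose and 0 fell, with a median change of 1.25 on the log2 scale against 0.00486 over all genes; without parental replicate 3, 20 rose and 1 fell, with a median of 1.69. The share that rose is to be read against 9.89% of all genes with all arrays and 13.3% without parental replicate 3. In the fit restricted to the 6 compared arrays, 1 of the 23 was called, and in the same fit without parental replicate 3, 20 higher and 1 lower.

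A few promoters of this list are shown because they hold the letters of the composite C/EBP-ATF response element, the site type through which ATF4 is known to act. The sequences are from RefSeq, build GRCh38.p14, 5′ to 3′ on the gene's strand and upstream of the annotated start, with the match in capitals.
ASNS, chr7:97872439-97872506, minus strand: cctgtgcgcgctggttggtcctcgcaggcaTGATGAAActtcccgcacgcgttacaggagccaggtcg
CHAC1, chr15:40953232-40953299, plus strand: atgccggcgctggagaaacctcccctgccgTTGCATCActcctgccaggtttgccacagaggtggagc
HERPUD1, chr16:56931936-56932003, plus strand: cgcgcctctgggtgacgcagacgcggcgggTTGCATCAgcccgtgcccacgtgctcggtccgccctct
The motif searched was TGATGNAA on either strand (TTNCATCA on the other) in the 250 bases before the start. It was present in 4 of the 21 list promoters that matched, with ATF3 as the remaining one, and in 2.2% of the promoters of 14250 tested genes. None of 32 type I interferon promoters and none of 20 cell cycle promoters held it. A match is a description of the letters only.

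Among the transcription factors of the response, DDIT3, ATF3 and XBP1 rose. DDIT3, which encodes CHOP, the factor linked to cell death under prolonged stress, measured 4.88, 5.30 and 8.46 in parental replicates 1 to 3 and 10.04, 9.98 and 9.72 in withdrawal. The parental mean was near background, so the rise was at least 4.34-fold (log2 change 3.70 ± 0.53 SE, adjusted p = 3.62e-05) and at least 5.46-fold without parental replicate 3. The groups did not overlap, and parental replicate 3 lay between them. ATF3, a stress-induced factor of the same family, measured 10.69, 10.39 and 12.97 in parental and 13.30, 13.25 and 13.29 in withdrawal cells, a rise of 1.93 ± 0.41 (adjusted p = 0.0016), or 2.74 without parental replicate 3. ATF4 itself, which is controlled largely at translation, differed by 0.27 ± 0.16 (adjusted p = 0.26) with all arrays and rose by 0.49 (adjusted p = 0.0081) without parental replicate 3. XBP1, whose spliced form drives the chaperone arm, rose by 0.94.

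The inhibitors that the response is known to induce rose as well. DDIT4, an inhibitor of the kinase complex mTORC1, measured 10.82 and 10.93 in parental replicates 1 and 2, 15.31 in parental replicate 3 and 15.61, 15.61 and 15.62 in the withdrawal arrays. The change was 3.26 ± 0.64 (adjusted p = 0.000826), and 4.74 without parental replicate 3, which lay close to the withdrawal level. In the fit restricted to the 9 LIM1215 arrays DDIT4 no longer passed. SESN2, a leucine sensor that also restrains mTORC1, rose by 1.90 (2.63 without parental replicate 3), TRIB3, a pseudokinase that restrains ATF4 and AKT, by 1.5, and PPP1R15A, the phosphatase subunit that reverses eIF2 alpha phosphorylation, by 1.60. CHAC1, which degrades glutathione, measured 12.73, 12.74 and 15.59 in parental and 15.51, 15.49 and 15.43 in withdrawal cells. Parental replicate 3 of CHAC1 was above the withdrawal arrays, so its groups overlapped although the change of 1.79 passed (adjusted p = 0.0047), and it was 2.74 without that replicate.

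The list also holds enzymes and transporters of amino acid supply, most of which rose. ASNS, asparagine synthetase, measured 13.40, 13.52 and 14.79 in parental and 15.18, 15.10 and 15.18 in withdrawal cells and rose by 1.25 ± 0.22 (adjusted p = 0.00029). The serine pathway enzymes PHGDH and PSAT1 rose by 0.88 and 0.53, and the transsulfuration enzymes CTH and CBS by 1.48 and 0.86. SLC7A11, the cystine importer, rose by 1.41 and its partner chain SLC3A2 by 0.47. SLC7A5, the large neutral amino acid transporter, and SHMT2, a mitochondrial serine enzyme, did not pass in either analysis, at −0.13 and 0.12. Over a wider set of 34 amino acid transporters, chosen after their values were seen, 9 rose and 11 fell (9 and 12 without parental replicate 3). Of all genes, 9.89% rose and 11.2% fell, or 13.3% and 15.1% without parental replicate 3. This wider set thus had no single direction.

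Among the endoplasmic reticulum genes the direction was mixed. DNAJB9, a cochaperone of the reticulum, measured 10.83, 10.95 and 11.89 in parental and 13.18, 13.12 and 13.14 in withdrawal cells, a rise of 1.93 ± 0.18 (adjusted p = 2.3e-07). HERPUD1, of the degradation machinery, rose by 0.94 and HSPA5, the main chaperone BiP, by 0.29. SDF2L1, a partner of the chaperone complex, was 0.73 lower with all arrays (adjusted p = 0.058) and fell by 1.08 without parental replicate 3. VLDLR, a lipoprotein receptor, measured 5.20, 5.49 and 8.69 in parental and 8.84, 9.09 and 8.72 in withdrawal cells, at least 2.02-fold higher.

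In SW48 1 of the 23 genes rose and 0 fell between parental and withdrawal, with a median of −0.00207, and in Caco2 0 were called, with a median of 0.0441. Of all 17687 genes, only 722 were called in SW48 and 933 in Caco2. A list of this size would thus on average hold few calls in either line. Tested directly, the change in LIM1215 exceeded that in SW48 for 13 of the 23 genes and that in Caco2 for 16, and was smaller for 0. Over all 17687 genes it was more positive for 1165 against SW48 and 1169 against Caco2. It was more negative for 1191 and 1196.

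Most listed genes of cell division were lower in the withdrawal cells, but parental replicate 3 was low as well. Of 24 listed and measured cell cycle genes, 0 were higher and 16 lower (median −0.609 against 0.00486 over all genes). Without parental replicate 3, 22 fell, with a median of −0.866. The shares of all genes that fell were 11.2% and 15.1%. Parental replicate 3 differed from parental replicates 1 and 2 by a median of −0.764 over the list. The withdrawal arrays lay wholly beyond the 3 parental arrays for 10 of the 24 genes, against 31.6% of all genes. Restricted to the 6 compared arrays 2 of the 24 were called lower, and 21 in that fit without parental replicate 3. The count was 11 when parental replicate 1 or 2 was left out.

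The cyclins E, the MCM helicase and several mitotic genes fell. CCNE1, the cyclin that drives entry into S phase, measured 11.27, 11.34 and 9.93 in parental and 8.52, 8.53 and 8.74 in withdrawal cells and fell by 2.25 on the log2 scale (SE 0.26, adjusted p = 4.2e-06). CCNE2, its paralog, measured 10.43, 10.47 and 7.96 against 7.89, 8.12 and 7.65, so parental replicate 3 lay inside the withdrawal range, and the change was −1.74 with all arrays and −2.56 without that replicate. MKI67, the proliferation marker, fell by 1.39, and E2F1, the factor that drives S phase genes, by 1.26. All 6 subunits of the MCM replicative helicase fell, from −0.51 for MCM5 to −0.99 for MCM2 and MCM6. The change was −0.84 for MCM5 and −1.54 for MCM6 without parental replicate 3. CCNB1, the cyclin of mitotic entry, fell by 0.97 and CDC20, an activator of the anaphase-promoting complex, by 0.74. The mitotic genes BUB1, AURKA and AURKB, the cyclin CCNA2 and RRM2, a subunit of ribonucleotide reductase, passed only without parental replicate 3, and CDK1 differed by −0.05 with all arrays and fell by 0.26 without it.

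Promoters of MCM6 and E2F1 are given because both hold the letters of an E2F site, the element through which E2F factors act on S phase genes (RefSeq, GRCh38.p14, gene's strand, match in capitals).
MCM6, chr2:135876496-135876625, minus strand: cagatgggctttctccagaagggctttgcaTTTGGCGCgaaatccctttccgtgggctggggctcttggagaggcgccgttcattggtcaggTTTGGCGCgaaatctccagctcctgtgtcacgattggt
E2F1, chr20:33686386-33686435, minus strand: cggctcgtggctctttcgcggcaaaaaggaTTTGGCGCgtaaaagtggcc
The search was for TTTGGCGC and TTTCCCGC on either strand. These letters were in 6 of 20 matched cell cycle promoters, in 2.61% of all promoters, in 3 of 32 type I interferon promoters and in 0 of 21 stress promoters. The MCM6 window holds the motif at 2 places, and MCM6 measured 12.66, 12.60 and 10.99 in parental and 11.08, 11.18 and 11.01 in withdrawal cells. Parental replicate 3 of MCM6 was below the withdrawal arrays, so its groups overlapped.

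Of the same 24 genes, 0 were called in SW48 (median 0.00345) and 1 was lower in Caco2 (median −0.0362). With 722 of all 17687 genes called in SW48 and 933 in Caco2, a list of this size would on average hold few calls. The change of the cell cycle genes in LIM1215 was more negative than in SW48 for 12 and than in Caco2 for 11, by the test of the difference. Over all 17687 genes it was more negative for 1191 and 1196.

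Genes listed as output of the MAP kinase pathway were higher in part, and activity of the pathway was not tested. Of 18 measured genes, 9 rose and 0 fell (median 0.534), and 14 rose without parental replicate 3 (median 0.758). The shares of all genes that rose were 9.89% and 13.3%. In the fit restricted to the 6 compared arrays 0 of the 18 were called, and the same fit without parental replicate 3 called 15 higher. ETV5, an ETS factor induced by ERK, measured 7.66, 7.85 and 10.47 in parental and 11.63, 11.56 and 11.82 in withdrawal cells, and rose by 3.01 ± 0.41 (adjusted p = 1.9e-05). DUSP5, a nuclear phosphatase of ERK, measured 7.31, 7.09 and 10.64 against 10.86, 10.59 and 10.68, with parental replicate 3 inside the withdrawal range, and rose by 2.37 (adjusted p = 0.0027). The receptor genes EPHA2 and EPHA4 rose by 1.20 and 1.32, PHLDA1 by 1.16, the immediate early factor EGR1 by 1.06, and the feedback genes SPRY4 and DUSP6 by 0.96 and 0.56. EGR1, SPRY4 and DUSP6 rose by 1.64, 1.47 and 0.94 without parental replicate 3. CCND1, cyclin D1, and FOSL1, an AP-1 subunit, passed in neither analysis, at −0.20 and −0.18.

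Of 11 measured ErbB receptors and ligands, 2 rose, 1 fell and 8 did not pass, a share of risers to be read against 9.89% of all genes; 3 rose and 1 fell without parental replicate 3. Those that rose were the EGFR ligands HBEGF and EREG, and the one that fell was NRG1, a ligand of ERBB3 and ERBB4, which was near background in both groups. HBEGF measured 8.66, 8.70 and 12.31 in parental and 13.11, 12.72 and 12.85 in withdrawal cells, a rise of 3.01 ± 0.55 (adjusted p = 0.00041), or 4.22 without parental replicate 3. EREG, epiregulin, measured 13.34, 13.45 and 15.40 against 15.55, 15.51 and 15.63 and rose by 1.5 ± 0.30 (adjusted p = 0.0011), or 2.17. In both genes the groups did not overlap and parental replicate 3 lay just below the lowest withdrawal array. EGFR, the receptor cetuximab binds, measured 11.59, 11.50 and 11.50 in parental and 11.59, 11.65 and 11.82 in withdrawal cells, a difference of 0.16 ± 0.14 (adjusted p = 0.48). TGFA did not pass, at 0.16, and ERBB3 rose by 0.64 only without parental replicate 3.

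**Figure D2:**
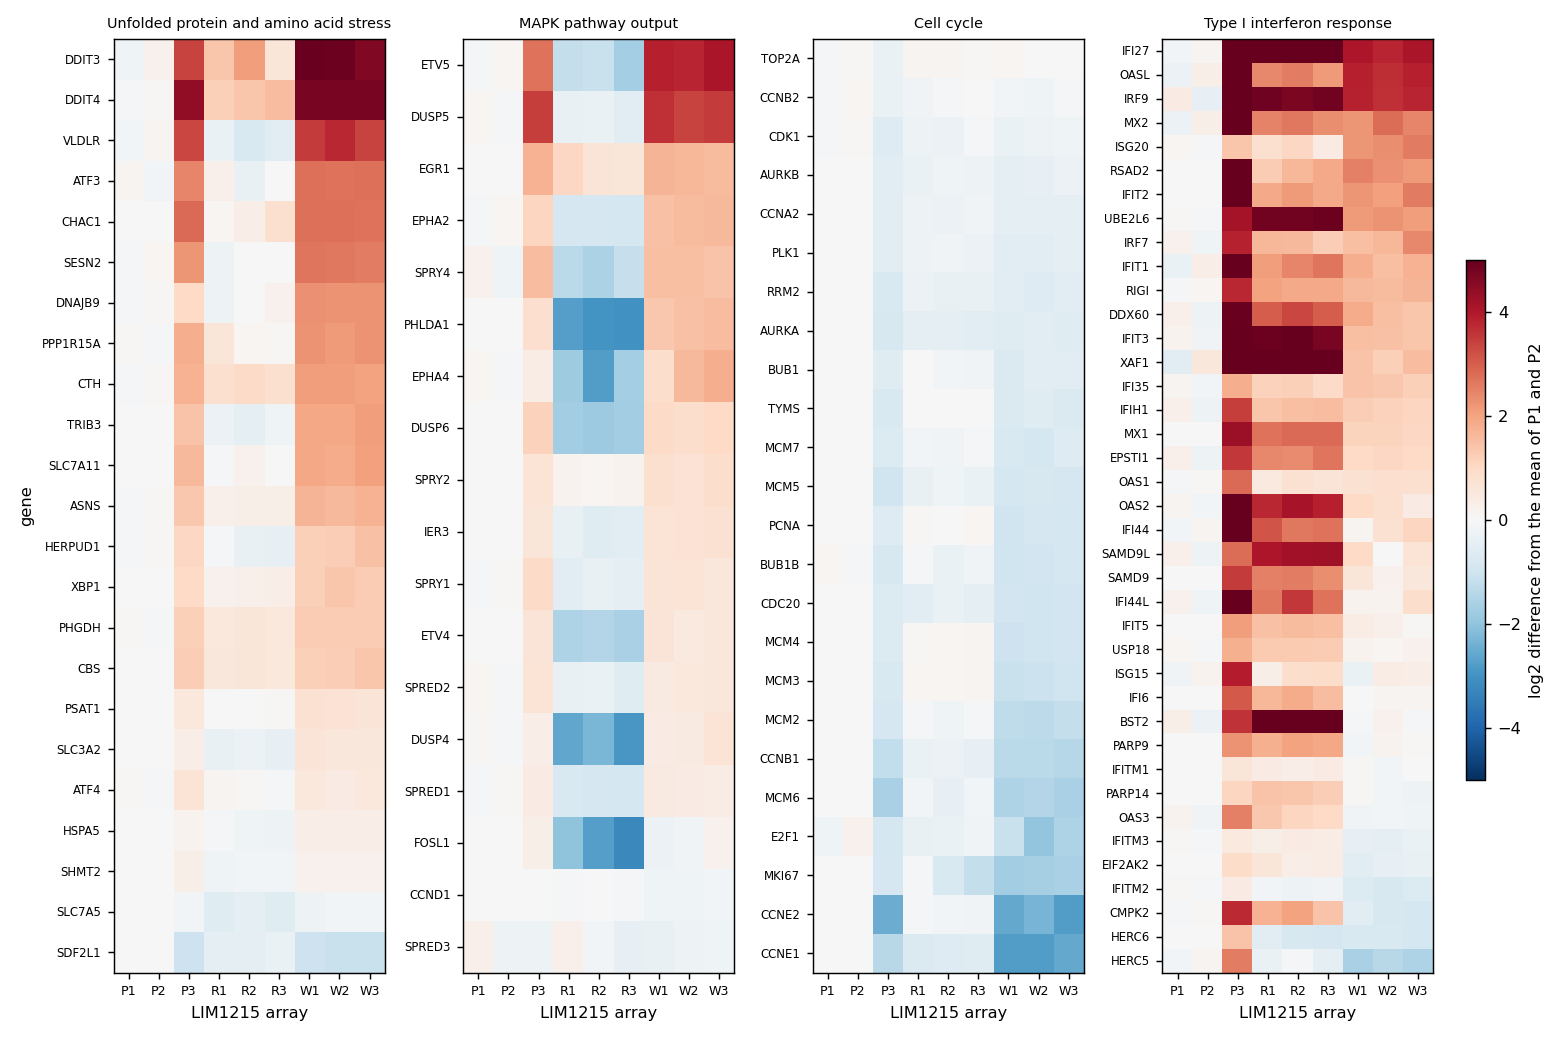
Rows are the members of 4 gene lists and columns the 9 LIM1215 arrays (P parental, R resistant, W withdrawal, with replicate number); colour is the log2 difference from the mean of parental replicates 1 and 2, cut off at 5 in either direction. In the stress and cell cycle lists parental replicate 3 lies on the side of the withdrawal arrays, with median differences of 1.23 and −0.764, and in the type I interferon list it is the darkest column for genes such as IFI44L, OAS2 and IFIT3.

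The type I interferon genes gave opposite pictures with and without parental replicate 3. With all arrays, 1 of 39 measured genes was called higher and 6 lower (median −0.465). Without parental replicate 3, 20 rose and 5 fell, with a median of 0.744. Of all genes, 9.89% rose and 11.2% fell with all arrays, and 13.3% and 15.1% without parental replicate 3. In both analyses the share of the list that fell was near that of all genes. With array weights, which gave parental replicate 3 a weight of 0.166, 15 rose and 6 fell. More of all genes were called with these weights too, as counted in the section on processing. No direction is therefore given for this list over all parental arrays.

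Relative to parental replicates 1 and 2, the median of the list was 3.63 higher in parental replicate 3. IFI27, an interferon-induced mitochondrial protein, measured 7.62 and 7.87 in parental replicates 1 and 2, 14.65 in parental replicate 3 and 11.77, 11.57 and 11.82 in withdrawal cells. Its change was 1.67 ± 1.01 with all arrays (adjusted p = 0.28) and a rise of 3.98 ± 0.29 without parental replicate 3 (adjusted p = 1.34e-09). OASL, an antiviral synthetase-like protein, measured 7.36, 7.91 and 13.24 against 11.51, 11.35 and 11.51, and IRF9, the DNA-binding subunit of the interferon-activated factor ISGF3, measured 8.01, 7.18 and 13.09 against 11.46, 11.26 and 11.40. In all 3 genes parental replicate 3 was the highest of the 6 arrays. IFIT1, which binds viral RNA, measured 6.17, 6.82 and 13.16 against 8.30, 8.02 and 8.22, a change of −0.54 with all arrays (adjusted p = 0.77) and a rise of at least 1.64-fold without parental replicate 3. ISG15, a ubiquitin-like modifier, measured 7.44, 7.81 and 11.53 against 7.28, 7.98 and 7.94. Without parental replicate 3 ISG15 differed by 0.11 (adjusted p = 0.82), and its withdrawal values spanned those of parental replicates 1 and 2.

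Parental replicate 3 exceeded the other 5 arrays by more than 1 on the log2 scale for 120 genes and lay below all of them by that much for 10. The largest excess was 6.35 for IFI44L, followed by 5.94 for OAS2, 5.09 for IFIT3, 4.91 for XAF1 and 4.86 for IFIT1, which are interferon-induced genes. ISG20, an exonuclease, was the one list member called higher with all arrays, at 5.54, 5.32 and 6.80 against 7.63, 7.74 and 8.02 (at least 1.36-fold). HERC5, CMPK2, HERC6, IFITM2 and EIF2AK2 fell in both analyses, although HERC5 was near background in both groups, and IFITM3 fell only with all arrays. The changes of CMPK2, HERC6 and EIF2AK2 were −1.98, −1.29 and −0.75 with all arrays and −0.73, −0.81 and −0.44 without parental replicate 3.

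The interferon-stimulated response element is shown for a pair of these promoters, since the list was the one that parental replicate 3 turned (RefSeq, GRCh38.p14, gene's strand, matches in capitals).
IFI27, chr14:94110598-94110680, plus strand: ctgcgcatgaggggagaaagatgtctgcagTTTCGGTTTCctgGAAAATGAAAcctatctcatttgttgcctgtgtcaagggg
IFIT1, chr10:89392477-89392559, plus strand: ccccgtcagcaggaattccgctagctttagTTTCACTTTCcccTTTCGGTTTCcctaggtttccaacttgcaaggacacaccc
The motif GAAANNGAAA, TTTCNNTTTC on the other strand, was in 19 of 32 matched type I interferon promoters and 2.65% of all promoters. It was in 0 of 21 stress and 0 of 20 cell cycle promoters. IFI27 and IFIT1 each hold 2 matches, and both had their highest value in parental replicate 3.

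Interferon gamma targets and antigen presentation genes showed few calls with all arrays. Of 22 interferon gamma genes, 3 rose and 4 fell, and 8 rose and 4 fell without parental replicate 3. With all arrays these shares are near those of all genes, 9.89% higher and 11.2% lower. ICAM1, the adhesion ligand of the lymphocyte integrin LFA-1, measured 10.42, 10.46 and 10.67 in parental and 8.28, 8.28 and 7.81 in withdrawal cells, and fell by 2.40 (SE 0.25, adjusted p = 9e-07). Here parental replicate 3 stood with its own group. HLA-E and HLA-F, nonclassical class I molecules that natural killer receptors recognise, rose by 0.97 and 1.23, or 1.47 and 1.87 without parental replicate 3. They were the 2 genes that rose among 18 of class I presentation with all arrays, and B2M, TAP1, PSMB9 and HLA-G passed only without parental replicate 3, where 6 rose and 1 fell. Of 13 class II genes 1 rose, HLA-DQA1, which was near background in both groups, and 3 rose without parental replicate 3.

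Some ligands through which natural killer cells are activated or held back rose and others fell. Of 20 activating ligands 4 rose and 3 fell (7 and 3 without parental replicate 3), and of 21 inhibitory ligands 6 rose and 2 fell (8 and 3), against 9.89% of all genes higher and 11.2% lower with all arrays. The shares that fell are near those of all genes. ULBP1, a ligand of the activating receptor NKG2D, measured 7.51, 6.97 and 11.10 in parental and 12.24, 12.26 and 12.12 in withdrawal cells, a rise of 3.68 ± 0.57 (adjusted p = 8.72e-05), and of at least 26.0-fold without parental replicate 3. RAET1L, another NKG2D ligand, rose by 1.12 (1.74 without parental replicate 3), PVR, a ligand of DNAM-1 and TIGIT, by 0.86 and CD58, the ligand of CD2, by 0.78. NCR3LG1, the ligand B7-H6 of NKp30, measured 10.09, 10.36 and 10.54 against 9.08, 9.31 and 8.75 and fell by 1.28 on the log2 scale, and BAG6, which also binds NKp30, fell by 0.34.

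Among inhibitory ligands the carcinoembryonic antigen family rose. CEACAM6 measured 11.17, 11.25 and 13.01 in parental and 13.75, 13.51 and 13.61 in withdrawal cells, a rise of 1.81 ± 0.31 (adjusted p = 0.00025). CEACAM5 rose by 1.42 and CEACAM1, the homophilic inhibitory receptor, by 1.41. NECTIN1 rose by 1.13, with parental arrays at 8.56, 8.18 and 8.19 and withdrawal arrays at 9.65, 9.28 and 9.41. CD276, the immune checkpoint molecule B7-H3, measured 12.24, 12.43 and 12.12 against 11.22, 11.07 and 11.23 and fell by 1.09, and NECTIN3 fell by 1.08. For NECTIN1 and CD276 the 3 parental arrays were close together.

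Genes of the death machinery that granzymes and death ligands engage also changed both ways, with 8 of 19 higher and 4 lower (9 and 4 without parental replicate 3), against 9.89% and 11.2% of all genes. TNFRSF10B, the TRAIL receptor DR5, measured 12.09, 11.98 and 13.04 in parental and 13.62, 13.59 and 13.66 in withdrawal cells and rose by 1.25 ± 0.19 (adjusted p = 5.9e-05). BIRC2 and XIAP, inhibitors of apoptosis, rose by 0.96 and 0.69, MCL1, an antiapoptotic BCL2 protein, by 0.49 and CFLAR, an inhibitor of caspase-8, by 0.47 (0.73 without parental replicate 3). SERPINB9, the inhibitor of granzyme B, measured 11.18, 11.08 and 11.25 against 9.56, 9.62 and 8.71 and fell by 1.87 (SE 0.22, adjusted p = 3.4e-06). BAX and BID, which promote release from mitochondria, fell by 1.02 and 0.78, and FAS, a death receptor, by 0.66. With the 9 LIM1215 arrays alone 3 rose and 3 fell.

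Inflammatory caspases and interleukin 1 family genes included 6 of 18 higher and 1 lower in both analyses, against 9.89% and 13.3% of all genes higher. CASP5, an inflammatory caspase, measured 5.60, 6.29 and 6.60 in parental and 8.56, 8.76 and 9.05 in withdrawal cells, at least 2.70-fold higher. IL1B measured 6.59, 7.08 and 9.75 against 10.25, 10.18 and 10.30 and rose by 2.44 ± 0.47 (adjusted p = 0.00069), and IL18 rose by 0.85. CASP1, IL1A and GSDME were near background in both groups, so no fold is given for them.

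The stem cell and WNT target list had 8 of 20 lower and 2 higher, with a median of −0.39 (9 and 2 without parental replicate 3), against 11.2% of all genes lower. LGR5, the intestinal stem cell receptor for R-spondin, measured 14.59, 14.54 and 13.77 in parental and 12.65, 12.76 and 12.92 in withdrawal cells and fell by 1.52 (SE 0.21, adjusted p = 2.5e-05). SMOC2, a matrix protein of the stem cell signature, fell by 2.21, DKK1, a secreted WNT inhibitor, by 1.64, LEF1, a WNT effector factor, by 1.54 and AXIN2, a feedback inhibitor, by 0.61. SOX9 and RNF43 rose by 0.62 and 0.63, or 0.97 and 1.07 without parental replicate 3. When parental replicate 1 or 2 was left out, 0 rose and 7 fell.

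Sterol synthesis genes were lower as well, with 0 of 16 higher and 8 lower (median −0.394) against 11.2% of all genes lower. Here parental replicate 3 stayed near its group for several genes. LSS, lanosterol synthase, measured 11.87, 12.02 and 11.83 in parental and 10.86, 10.85 and 10.84 in withdrawal cells and fell by 1.06 (SE 0.14, adjusted p = 1.9e-05). HMGCS1, HMG-CoA synthase, measured 14.49, 14.54 and 14.58 against 13.78, 13.74 and 13.90 and fell by 0.73. IDI1, MVK, MVD, SQLE, INSIG1 and DHCR7 fell by 0.27 to 0.69. Without parental replicate 3 SREBF2, the factor that drives the pathway, rose by 0.64, DHCR7 no longer passed, and 7 genes fell, INSIG1 by 0.43 in place of 0.65.

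Genes of mismatch repair and DNA methylation had 6 of 12 lower and 1 higher (7 and 1 without parental replicate 3), against 11.2% of all genes lower. MSH6, a mismatch recognition protein, measured 12.59, 12.57 and 11.43 in parental and 11.08, 11.14 and 10.90 in withdrawal cells and fell by 1.15. MSH3, another mismatch recognition protein, measured 9.92, 10.01 and 10.44 against 11.14, 11.08 and 11.24 and rose by 1.03 ± 0.18 (adjusted p = 0.0003). UHRF1, which recruits the maintenance methyltransferase, fell by 1.12 (−1.70 without parental replicate 3), and PMS2 by 0.46.

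Redox, detoxification and hypoxia lists each held genes that changed in either direction. With all arrays 9.89% of all genes rose and 11.2% fell. Of 17 NRF2 and oxidative stress genes 2 rose and 6 fell (3 and 6 without parental replicate 3). HMOX1, heme oxygenase, fell at least 2.58-fold, GCLM, the modifier of glutathione synthesis, fell by 1.60 on the log2 scale, and AKR1B10, an aldo-keto reductase, rose by 1.75 (2.83 without parental replicate 3). Of 23 drug and steroid metabolism genes 4 rose and 6 fell in both analyses. CYP3A5, a drug-metabolising cytochrome, measured 6.23, 7.46 and 8.48 in parental and 9.89, 9.87 and 9.95 in withdrawal cells and rose by 2.52, while CYP1A1, a target of the aryl hydrocarbon receptor, measured 9.28, 9.01 and 9.09 against 6.81, 6.74 and 7.25 and fell at least 3.16-fold. Of 16 hypoxia and glycolysis genes 6 rose and 2 fell in both analyses. VEGFA, the angiogenic factor, rose by 1.48, NDRG1 by 1.73 and ADM by 1.00 (1.52 without parental replicate 3), and LDHA, lactate dehydrogenase, fell by 0.39.

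The remaining lists are given by their counts, to be read against 9.89% of all genes higher and 11.2% lower with all arrays and 13.3% and 15.1% without parental replicate 3. Of 14 p53 targets 3 rose and 5 fell (4 and 5 without parental replicate 3). GDF15, a stress cytokine, rose by 0.83, AEN, a nuclease, by 0.59 and SESN2 as given above, while BAX and FAS fell as given above, SESN1 by 0.95, ZMAT3 by 0.62, and TP53INP1 at least 1.55-fold. MDM2, the ubiquitin ligase of p53, passed in neither analysis, and CDKN1A, the cell cycle inhibitor p21, rose by 0.72 only without parental replicate 3. Epithelial junction genes had 5 of 22 higher, OCLN and JUP among them, and 1 lower, MARVELD3 (8 and 2 without parental replicate 3). Integrins and laminins had 4 of 17 higher and 1 lower (5 and 2), and interferon ligands, receptors and kinases 4 of 20 and 1 (7 and 2). Enterocyte genes had 4 of 26 higher, with CA2, a carbonic anhydrase, up by 2.08, and 1 lower (7 and 2 without parental replicate 3).

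TGF-beta response genes had 2 of 22 higher and 1 lower, and 6 and 2 without parental replicate 3. TGFBR1, the type I receptor, measured 11.52, 11.69 and 10.47 in parental and 9.30, 9.27 and 9.49 in withdrawal cells and fell by 1.87. NF-kappaB genes had 2 of 18 higher, CXCL8 and RELB, and 2 lower, CXCL5 and CCL20, and 6 and 1 without parental replicate 3. Complement genes had 2 of 14 higher and 2 lower (3 and 2), goblet and secretory genes 3 of 20 and 1 (3 and 2), keratins 2 of 12 and 1 in both analyses, and kallikreins 2 of 13 and 2 (2 and 1). Mesenchymal genes had 2 of 20 higher and 0 lower, SNAI2 at least 1.09-fold higher and S100A4 at least 1.01-fold, and 3 higher without parental replicate 3. In both analyses cancer-testis antigens had 0 of 17 higher and 2 lower, both near background. Of 12 ribosomal protein genes listed only 4 were measured, and 0 were called in either analysis.

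**Figure D3:**
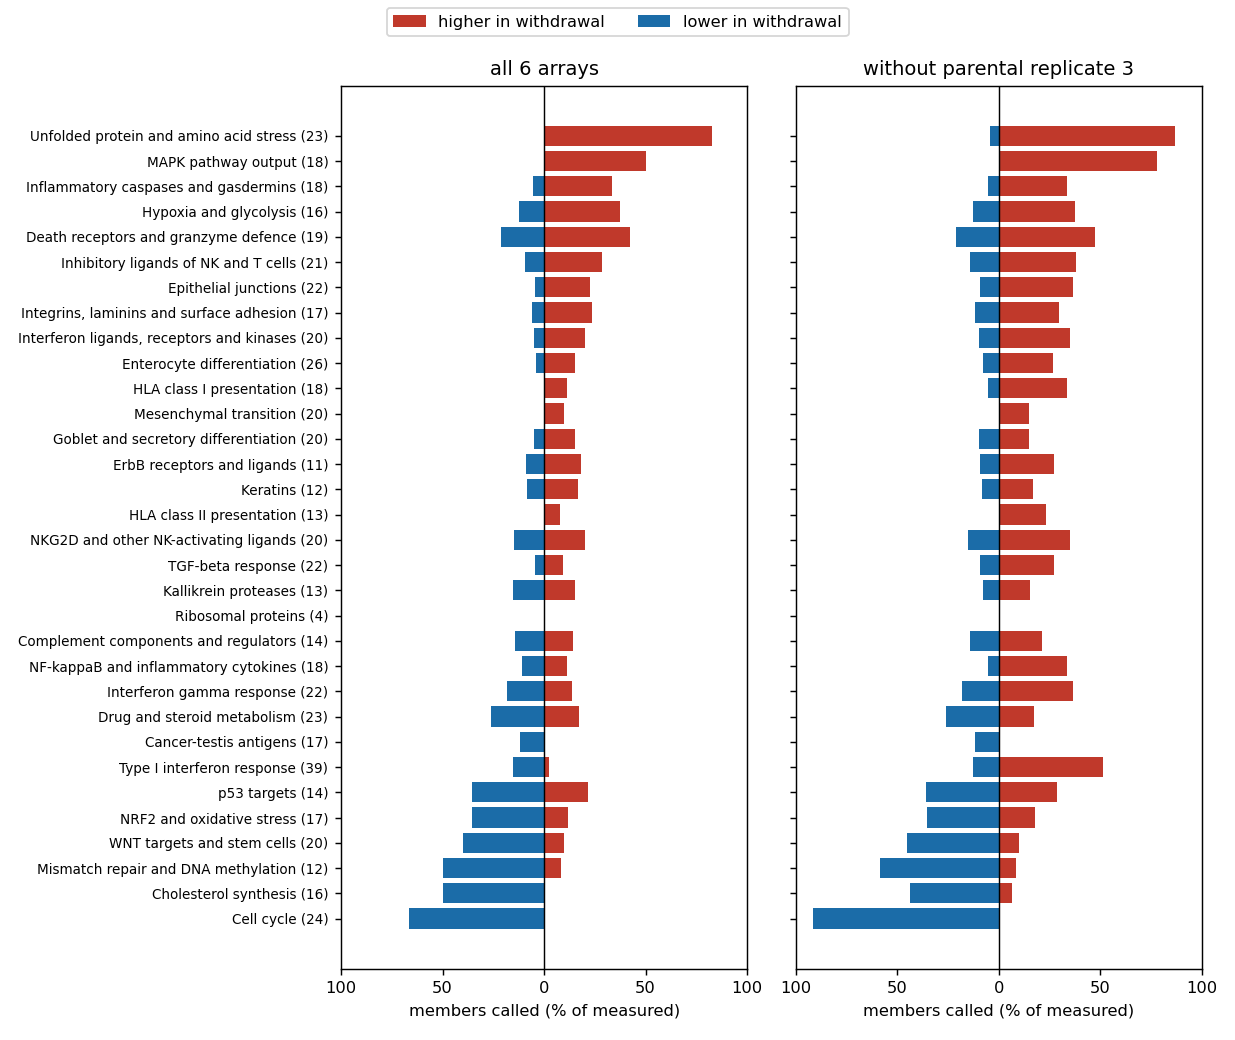
Bars give the share of measured members of each list (number in brackets) called higher (right) or lower (left) in withdrawal, as a percentage, with all arrays and without parental replicate 3. The stress list reaches 19 of 23 and 20 of 23 higher, the cell cycle list 16 of 24 and 22 of 24 lower, and the type I interferon list changes from 1 of 39 to 20 of 39 higher. Of all genes, 9.89% were higher and 11.2% lower with all arrays, and 13.3% and 15.1% without parental replicate 3.

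The largest single changes lay outside these lists for the most part. HAND1, a basic helix-loop-helix factor of heart and trophoblast development, measured 5.31, 5.98 and 6.39 in parental and 12.13, 12.01 and 11.98 in withdrawal cells. Its parental mean was near background, and the rise was at least 25.7-fold (log2 change 6.15 ± 0.27, adjusted p = 1.51e-12), with parental replicate 3 close to the other parental arrays. IGFBP1, a binding protein of insulin-like growth factors, measured 6.16, 6.45 and 12.12 against 14.25, 14.18 and 14.23 and rose by 5.98 ± 0.88 (adjusted p = 4.86e-05), or at least 108-fold without parental replicate 3. Of the 30 largest changes, 17 no longer passed when only the 6 compared arrays set the spread, IGFBP1 among them (adjusted p = 0.0739). MMP1, interstitial collagenase, measured 5.17, 5.06 and 8.07 against 11.44, 11.15 and 11.33 and was at least 12.5-fold higher.

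The other genes among the 15 largest rises were PNPLA1, SLC43A1, DDIT3, ULBP1, MTMR11, FXYD4, TMEM154, MOGAT3, TREML2, SLCO1B3, CYP2B6 and DDIT4, with changes from 3.26 to 4.16 with all arrays. SLC43A1, a transporter of large neutral amino acids, measured 7.98, 7.77 and 11.82 in parental and 12.81, 12.99 and 13.08 in withdrawal cells. SLCO1B3, an organic anion transporter, measured 8.73, 8.96 and 12.47 against 13.41, 13.52 and 13.52. In each of these 12 genes parental replicate 3 lay between the other parental arrays and withdrawal, 2.50 to 4.43 above the former.

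Among the 15 largest falls, SLC1A3, a glutamate and aspartate transporter, measured 12.37, 12.59 and 10.34 in parental and 6.96, 7.29 and 6.89 in withdrawal cells, at least 19.6-fold lower (adjusted p = 4.97e-08), or 32.2-fold without parental replicate 3. PTGDR, a prostaglandin D2 receptor, measured 11.22, 10.94 and 6.20 against 5.70, 5.92 and 5.81 and was at least 3.95-fold lower, or 12.2-fold without parental replicate 3. PTGDR no longer passed with the 9 LIM1215 arrays (adjusted p = 0.0619) or with the 6 compared arrays (adjusted p = 0.139). LIMCH1, an actomyosin regulator, measured 8.54, 7.95 and 7.84 against 5.24, 4.28 and 5.0, with parental replicate 3 beside its group. CXCR4, a chemokine receptor, measured 10.21, 10.40 and 8.37 against 7.53, 6.66 and 6.75, at least 4.44-fold lower (6.95-fold without parental replicate 3), and CXCL5, a neutrophil chemokine, fell by 2.72. The others were GPRC5B, PCP4, KCNJ2 and KCNJ8 (inward rectifier potassium channels), TSPAN18, CMTM7, MME (the peptidase neprilysin), SULF2 (a heparan sulfatase), H1-3 (a linker histone) and LPCAT1 (a phospholipid acyltransferase), with changes from −2.50 to −3.96.

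**Figure D4:**
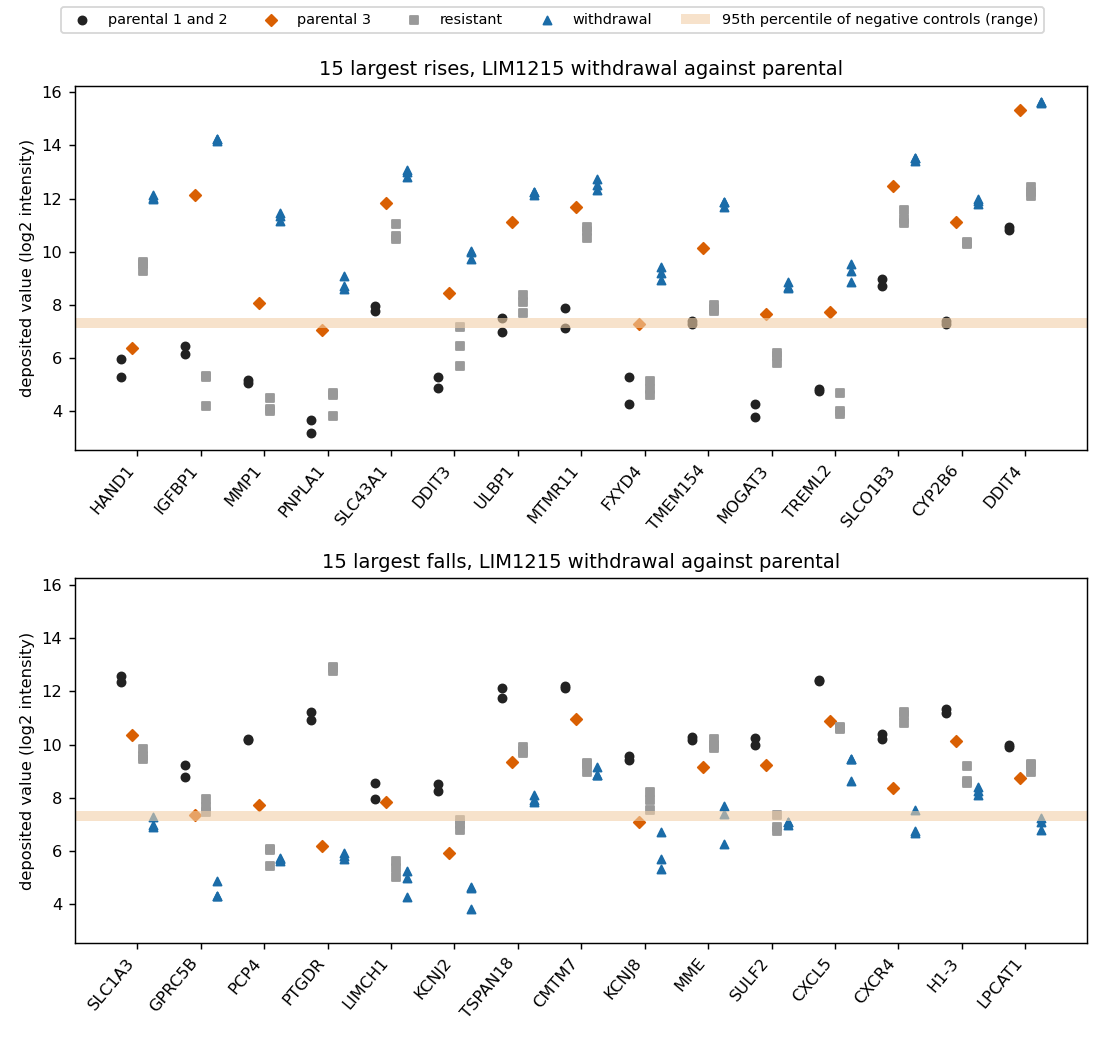
Points are the deposited values (log2 intensity) of the 15 genes with the largest rise (top) and the 15 with the largest fall (bottom) in every LIM1215 array; the band is the range of the background percentile over the parental and withdrawal arrays. Parental replicate 3 lies apart from parental 1 and 2 for most genes, as for DDIT4 at 15.31 and PTGDR at 6.20, and next to them for HAND1 and LIMCH1.

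Levels in the resistant arrays, which carry natural killer cell markers, did not order the genes uniformly between parental and withdrawal. HAND1 measured 9.62, 9.54 and 9.29 there, between the 2 groups. IGFBP1 measured 5.32, 4.21 and 5.30 and MMP1 4.49, 4.11 and 4.0, near background, as in parental replicates 1 and 2, so these values have no order. PTGDR measured 12.87, 12.77 and 12.92 and CXCR4 10.79, 11.24 and 11.09, above every parental array, and the part of the natural killer cells in these values was not tested. SULF2, PCP4, CMTM7 and LIMCH1 were already low, with 6.91, 7.35 and 6.73 for SULF2 against 7.08, 7.10 and 6.99 in withdrawal.

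Some genes were called in one analysis and not in the other. Without it 1536 more genes passed, 715 higher and 821 lower. The largest that rose were IFI27, OASL, IRF9, CTSE and EHD2, and CTSE, the protease cathepsin E, measured 8.25, 8.41 and 12.43 in parental and 11.16, 11.35 and 11.10 in withdrawal cells. The largest that fell were MPP1, TRMT61A, H3C2, BATF and LY6G5C, with changes of −1.54 to −1.64, and MPP1, a membrane scaffold protein, measured 10.21, 9.53 and 7.84 against 8.30, 8.54 and 7.86. In these 10 genes parental replicate 3 was nearer to the withdrawal arrays or beyond them. Only with it did 241 genes pass, 107 higher and 134 lower. The largest that rose were H2BC17, BCL2L15, STAMBPL1, WDPCP and NAIF1, and the largest that fell KLK7, ACHE, HOMER2, CCL20 and TRIM34. A call could also be lost near the threshold because fewer arrays were left. BCL2L15 rose by 0.85 ± 0.30 with all arrays (limma, adjusted p = 0.048). Without parental replicate 3 it differed by 0.90 ± 0.34 (adjusted p = 0.053). KLK7, a kallikrein protease, measured 9.01, 8.96 and 11.36 against 8.16, 8.65 and 8.61, and CCL20, a chemokine, 11.63, 11.84 and 13.66 against 11.29, 11.45 and 11.28. The changes of KLK7, CCL20 and TRIM34 were −1.30, −1.03 and −1.03 with all arrays and −0.51, −0.39 and −0.60 without parental replicate 3.

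The withdrawal change of LIM1215 differed from that of SW48 for 2356 genes (13.3%), with 1165 more positive and 1191 more negative in LIM1215, and from that of Caco2 for 2365 genes (13.4%), with 1169 and 1196. Without parental replicate 3 the counts were 3863 and 3960. Of the 30 genes with the largest changes in LIM1215, 29 differed from SW48, all but DDIT4 (adjusted p = 0.0572), and 30 from Caco2; without parental replicate 3 all 30 differed from both. HAND1 changed by 0.33 in SW48 and −0.21 in Caco2, and IGFBP1 by 0.26 and −0.19, neither of which passed. ULBP1 had values of −1.01 and −0.82 in the other lines, which did not pass either. These 30 genes were chosen for their change in LIM1215, so the direction of the difference is partly set by the choice.

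**Figure D5:**
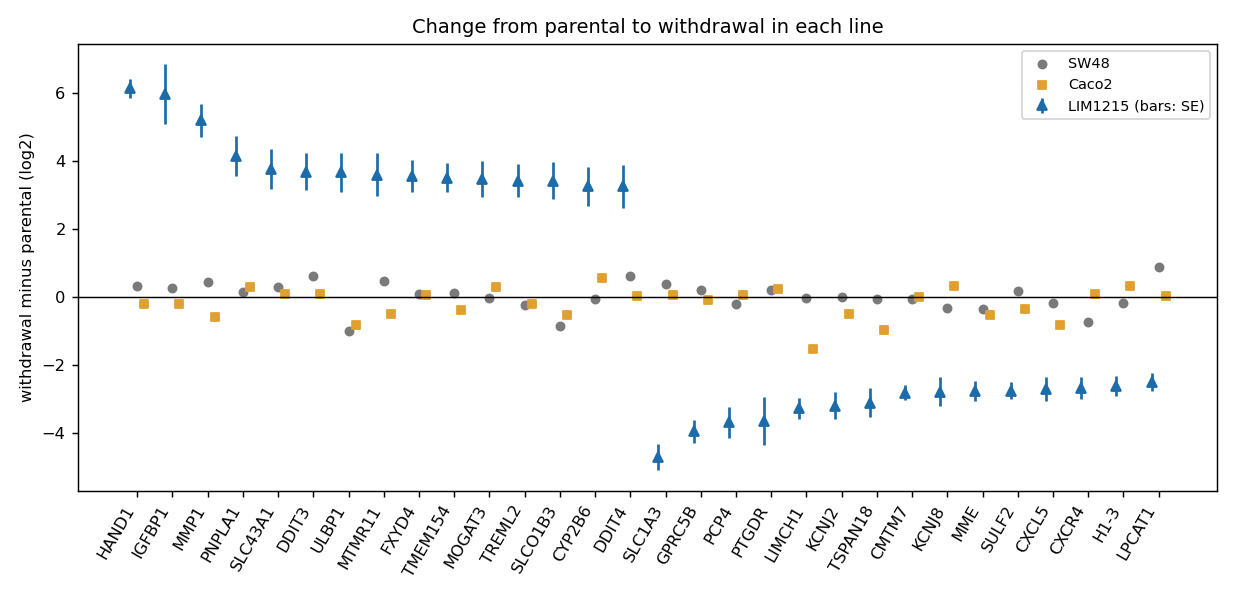
Points give withdrawal minus parental (log2) for the 30 genes with the largest changes in LIM1215 (triangles, bars are the SE), with the values in SW48 (circles) and Caco2 (squares) beside them. The LIM1215 values lie between 3.26 and 6.15 for the rises and between −2.50 and −4.72 for the falls, while SW48 and Caco2 stay between −1.53 and 0.89.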

How the data were processed

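Total RNA (250 ng) was labelled with a whole-transcript kit for Affymetrix arrays, per the labels. The authors deposited 1 value table of 24351 probe sets on 27 arrays. Its scale is not stated; the range of the deposited values is that of log2 intensities and they were used as such, with no further normalization. Normalization and software: not given in the sources used here. No label names a batch. Of 21448 transcript probe sets, 17709 had a gene symbol in the platform annotation and 3739 had none; 22 dimmer copies of a gene were dropped, leaving 17687 genes. Array number limits the precision, with 3 arrays a group.

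Group means were estimated over all 27 arrays by a linear model (limma 3.58.1, R 4.3.3; 18 residual degrees of freedom), with empirical Bayes moderation, two-sided tests and Benjamini-Hochberg adjustment over all genes. The script was tested on simulated data. A group was near background when its mean lay below the mean 95th percentile of 612 negative controls. Where one group was near background, the fold is a bound ("at least"), the brighter mean against the higher of that percentile and the dim value on each array. Levels were not compared between genes or lines.

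The genes named were the 15 with the largest change in each direction that passed with and without parental replicate 3, had arrays that did not overlap and 1 group above background; the 5 in each direction that passed in 1 of these analyses only; and members of 32 gene lists. Of 700 genes on those lists and 8 marker lists, 629 were measured. The comparison and the lists were chosen with earlier results of these data known. The alternatives were other sets of arrays, quantile normalization, a filter on dim genes, all probe sets, another prior, array weights, the replicate number as a block and leaving out each array. Promoters came from RefSeq (GRCh38.p14), matched by gene identifier for 14250 genes. Figures were drawn with matplotlib 3.10.9.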

Additional observations from a re-analysis of the deposited data

Results flagged for a closer look

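The withdrawal change in LIM1215 differed from that in SW48 or Caco2, by the test of the difference itself, for the genes below. They are the 5 with the largest rise and the 5 with the largest fall in LIM1215, so the direction of each difference is partly set by that choice. Over all genes, 2356 differed between LIM1215 and SW48 and 2365 between LIM1215 and Caco2. Values are the LIM1215 change minus the change in the other line, in log2.

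Among rises, HAND1 had differences of 5.824 against SW48 and 6.358 against Caco2, and IGFBP1 had 5.719 and 6.169. MMP1 had 4.748 and 5.807, PNPLA1 had 4.021 and 3.853, and SLC43A1 had 3.485 and 3.677. Among falls, SLC1A3 had differences of −5.108 against SW48 and −4.762 against Caco2, GPRC5B had −4.155 and −3.881, and PCP4 had −3.498 and −3.747. PTGDR had −3.839 and −3.871, and LIMCH1 had −3.237 and −1.741, where Caco2 itself changed by −1.53. No test of single outlying arrays was made in groups of 3, and parental replicate 3 is described by its values and its array weight of 0.166.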

How the results depend on the processing

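No named gene that passed with all arrays reversed its direction in an alternative. For the 30 genes with the largest changes this was partly set by their choice. Their arrays did not overlap between the groups, so leaving out arrays could not reverse them. The counts moved, IFIT1, which had not passed with all arrays (−0.54), rose by 1.68 without parental replicate 3, and the median of the type I interferon list turned from −0.465 to 0.744 without parental replicate 3 and 0.422 with array weights. With array weights the genes called in withdrawal against parental numbered 5956 (2806 higher, 3150 lower), with only the 9 LIM1215 arrays 2227 (1064 and 1163) and with only the 6 compared arrays 620 (266 and 354). Leaving out 1 array at a time gave 2260 to 5019 genes in all, 1031 to 2357 higher and 1229 to 2662 lower; the highest came without parental replicate 3 and the lowest without parental replicate 2. The difference from SW48, 2356 genes, became 4195 with array weights, 1254 with only the groups compared, and 1547 to 3863 with 1 array left out. The difference from Caco2, 2365 genes, became 4429, 1444 and 1604 to 3960. Quantile normalization, another prior, the filter on dim genes and all probe sets stayed within 1.5 times of each count. Same-numbered parental and withdrawal arrays deviated together at r = 0.012, 0.00851 and 0.0196. With 3 arrays a group, and parental replicate 3 apart from its group, these values cannot show whether the arrays shared more than a number. With the replicate block the counts were 3532, 2187 and 2162. Of the 30 genes with the largest changes, 17 lost their call in at least 1 alternative, in 19 of the comparisons made. Among the list members called with all arrays, 162 lost their call and 38 kept it with only the 6 compared arrays. With only the 9 LIM1215 arrays 87 lost it and 113 kept it. The same 2 fits without parental replicate 3 lost 12 and 8. The adjusted p-values given for list members therefore depend on the arrays that set the spread. On the compared arrays 51.5% to 53.5% of genes were above background; below it folds are bounds or not given.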

Other observations

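The gene groups in this section were chosen after their values had been seen, and they are described without a test of the group. Their counts are to be read against 9.89% of all genes higher and 11.2% lower with all arrays, and 13.3% and 15.1% without parental replicate 3. Of 20 cytosolic aminoacyl-tRNA synthetases, which charge transfer RNA for translation, 16 were measured; 10 rose and 1 fell (median 0.446; 11 and 1 without parental replicate 3). Of the mitochondrial enzymes of the same kind, 15 were measured and 0 were higher and 2 lower (median −0.193; 0 and 5 without parental replicate 3). Among 41 DNA replication factors 17 were lower and 2 higher (median −0.445), which became 27 and 2 without parental replicate 3.

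Of 61 histone cluster genes, 11 rose and 5 fell with all arrays and 7 rose and 11 fell without parental replicate 3, so this group has no single direction.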
